A study of Sus scrofa with 20 samples.

Results

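The genes described here encode neurotensin (NTS), the transcription factor ISL1 and proSAAS (PCSK1N), together with the other gut hormones and endocrine cell genes that the array could read in pig ileum mucosa. NTS, ISL1 and PCSK1N were chosen from measured values of these same arrays, so their differences between feed efficiency groups, also within each sex, and between litters are given as descriptions without a test. A further 7 symbols were added for their known role, and 6 of them carried a measured row: GCG, CCK, SST, CHGA, CHGB and NEUROD1. No row analysed here carried the symbol PYY. In all, 9 genes of the 10567 genes with values were members, read by 13 probesets. A probeset is a group of array probes summarized as a single value, and 12 of the 13 passed the filter on low and variable values that the study's methods describe. The remaining probeset, that of CCK, had a standard deviation above the limit in both groups and was taken from the fit with no filter.

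The study compared ileum mucosa of 10 low residual feed intake (RFI) pigs with that of 10 high RFI pigs, all of a cross between Large White and Landrace. RFI is the feed a pig eats beyond what its growth and maintenance predict, so the low RFI pigs were the feed-efficient ones, labelled as high feed efficiency. Each of 5 sows contributed 4 pigs, a low and a high RFI animal of each sex, picked for the contrast in RFI between siblings at day 120. Slaughter followed shortly after, and the mucosa was scraped from a short segment close to the junction with the caecum. All groups shared the cross, free access to feed and the site of sampling. Intact litters were penned together, so the sow, the litter and the pen cannot be told apart. The labels do not give the slaughter batch, so any part of it in the litter differences cannot be told apart either.

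Enteroendocrine cells are scattered hormone-secreting cells of the gut epithelium that sense nutrients in the lumen. In the ileum, N cells release neurotensin after a fatty meal, L cells release the proglucagon products GLP-1 and GLP-2 encoded by GCG, and D cells release somatostatin (SST). Their hormones are cut from prohormones inside secretory granules, which also hold the granins CHGA and CHGB, and in rodents PCSK1N acts as an inhibitor of the convertase PCSK1. ISL1 and NEUROD1 are transcription factors of the endocrine lineage, and ISL1 also occurs in neurons.

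The values are log2 signals for which the arrays gave medians from 4.98 to 5.07 and correlations with each other from 0.948 to 0.974. A difference of 1 on this scale is a doubling. Precision is limited by how many arrays there are. Because the scraped mucosa is a mixture, fewer cells of a type and less RNA per cell cannot be told apart. In limma fits that held the sow fixed, 4.03% of 22136 probesets had an unadjusted p under 0.05 between RFI groups and 0 passed after adjustment. Low RFI pigs were higher in 1.44% and lower in 2.59%, so that 64.28% of the called probesets were lower, or 53.81% once the medians of the arrays were set equal. Of the 20 enteroendocrine markers listed, 13 had values, and the mean of these 13 ran from 5.17 to 6.06 in low RFI pigs and from 5.36 to 6.16 in high RFI pigs.

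NTS (chromosome 5, 96261299 to 96272947 of Sscrofa11.1) was the member with the largest difference among the 3 chosen from the arrays. Its log2 value ran from 7.31 through a median of 8.85 to 9.63 in the 10 low RFI pigs and from 7.42 through a median of 8.29 to 10.12 in the 10 high RFI pigs. The groups overlapped over most of their range, and the highest NTS value of all belonged to a high RFI female of sow 1417. The means were 8.82 ± 0.71 and 8.39 ± 0.80 (SD, n = 10), a fitted log2 difference of 0.43 ± 0.20 (SE), or 1.35-fold higher in low RFI pigs. Within the 10 pairs of littermates of the same sex, the low RFI pig had the higher NTS value in 8.

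ISL1 (chromosome 16, 30962994 to 30974201) lay lower in low RFI pigs. Its log2 value ran from 2.93 through a median of 3.84 to 4.09 in low RFI pigs and from 3.60 through a median of 4.08 to 4.32 in high RFI pigs. The fitted difference was −0.29 ± 0.13 (SE), and the low RFI pig was the lower member of 7 of 10 pairs. A single low RFI female of sow 1410, at 2.93, stood below the other 19 pigs, whose lowest was at 3.58.

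PCSK1N (chromosome X, 42947688 to 42952222) had a pair of probesets that did not behave alike. On the brighter probeset the value ran from 5.83 through a median of 6.39 to 6.81 in low RFI pigs and from 6.29 through a median of 6.59 to 6.84 in high RFI pigs. The fitted difference was −0.25 ± 0.11 (SE), with the low RFI pig lower in 8 of 10 pairs and in all 5 male pairs. On the dimmer probeset the fitted difference was −0.04 ± 0.08 (SE), with 6 of 10 pairs lower, and the high RFI pigs spread over 5.41 to 6.02 around the narrow low RFI range of 5.58 to 5.78. The 2 probesets followed each other only loosely over the 20 pigs (Pearson's r = 0.332, Spearman's rho = 0.280), so the lower PCSK1N value in low RFI pigs rests on the brighter probeset.

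**Figure D1:**
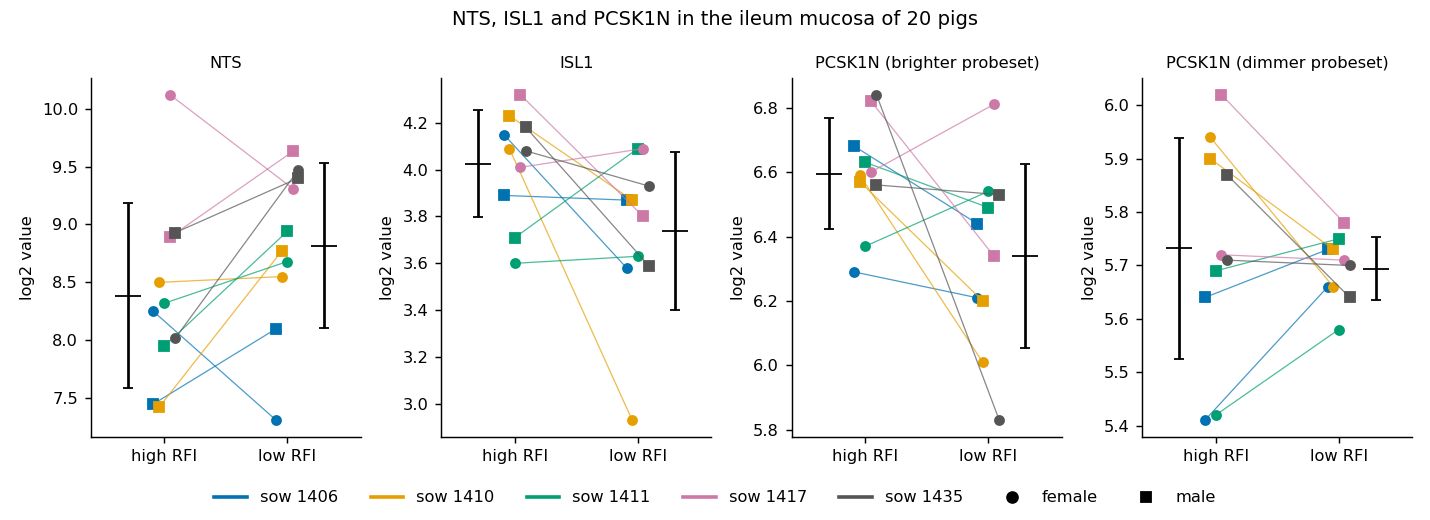
Log2 value of NTS, ISL1 and both PCSK1N probesets in each of the 20 pigs, with thin lines joining littermates of the same sex, colours for the sow and shapes for the sex; black bars are the mean ± SD of 10 pigs. The low RFI mean lies 0.43 above the high RFI mean for NTS and 0.29 and 0.25 below it for ISL1 and the brighter PCSK1N probeset, with overlapping points in every panel.

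The genes added by symbol were tested for the RFI difference. None of their 9 probesets reached an unadjusted p under 0.05 in limma, against the 4.03% of all probesets; the smallest unadjusted p was 0.124 and every adjusted p was 1. GCG (chromosome 15, 68800557 to 68810268) ran from 6.22 through 6.96 to 7.58 in low RFI pigs and from 5.65 through 6.63 to 7.77 in high RFI pigs, a fitted difference of 0.24 ± 0.20 (SE, limma p = 0.256). SST (chromosome 13, 125337560 to 125338742) ran from 8.09 through 8.48 to 8.99 and from 7.63 through 8.21 to 9.16, a difference of 0.20 ± 0.12 (SE, limma p = 0.124) with 8 of 10 pairs higher in the low RFI pig. SST passed the unadjusted threshold without the high RFI male of sow 1435 (limma p = 0.0401) and without the high RFI female of sow 1417 (limma p = 0.0356).

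CCK (chromosome 13, 25940674 to 25945879), a hormone of I cells that slows gastric emptying, was the most variable member. Its mean over the 20 pigs was 3.22, and its lowest values in both groups were under the filter's mean limit of 1.75, so its spread includes weak signals. Its value ran from 0.92 through 3.35 to 6.06 in low RFI pigs and from 1.39 through 2.75 to 5.33 in high RFI pigs, a difference of 0.52 ± 0.46 (SE, limma p = 0.28). The granins differed by less than the spread between pigs on every probeset: CHGA (chromosome 7, 114345542 to 114357799) by 0.12 ± 0.11 and −0.03 ± 0.10 on its brighter and dimmer probesets (SE, limma p = 0.262 and 0.765), and CHGB (chromosome 17, 14747282 to 14761995) by 0.21 ± 0.24 and 0.05 ± 0.13 (SE, limma p = 0.389 and 0.706). NEUROD1 (chromosome 15, 87175629 to 87179953) differed by −0.04 ± 0.09 and −0.14 ± 0.14 (SE, limma p = 0.684 and 0.337).

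The paired probesets of these genes were also compared with each other. CHGA (r = 0.761, rho = 0.734) and CHGB (r = 0.603, rho = 0.740) gave similar orders of the 20 pigs on both probesets. NEUROD1 did not (r = 0.282, rho = 0.190), and its dimmer probeset had a mean value of 2.73.

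Genes around these members were described as lists of hormones, transcription factors, granule and prohormone processing genes, serotonin genes, nutrient sensors, and hormone receptors and peptidases. Without the 3 chosen genes, 6 hormones, 8 transcription factors, 13 granule genes, 3 serotonin genes and 15 receptors and peptidases passed the filter. None of them had an unadjusted p under 0.05 between RFI groups, against the 4.03% of all probesets. Their median log2 differences were 0.03, −0.03, −0.03, 0.00 and −0.02 in that order, beside −0.00675 over all probesets. Among 12 nutrient sensors, whose median was −0.04, 1 was called: GNAT3, the taste G protein subunit gustducin, was at 1.84 ± 0.16 in low RFI pigs and 2.19 ± 0.38 in high RFI pigs (SD, n = 10). Its difference was −0.35 ± 0.13 (SE, limma p = 0.0116, adjusted p = 1), lower in the low RFI pig of 8 of 10 pairs, at a level close to the filter's mean limit of 1.75.

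None of the direct partners of the members with values was called between RFI groups, against the 4.03% of all probesets. NTSR2, a receptor that binds neurotensin, differed by −0.07 ± 0.08 (SE, limma p = 0.41), and SORT1, the sorting receptor that also binds neurotensin, by −0.09 ± 0.10 (SE, limma p = 0.386). The convertase PCSK2 differed by −0.17 ± 0.11 (SE, limma p = 0.134), with the low RFI pig lower in 8 of 10 pairs, and the carboxypeptidase CPE by 0.12 ± 0.27 (SE, limma p = 0.673). For the proglucagon products, the receptors GLP1R and GLP2R differed by −0.03 ± 0.16 and −0.11 ± 0.12 (SE, limma p = 0.845 and 0.344), and DPP4, the peptidase that inactivates GLP-1, by −0.01 ± 0.17 (SE, limma p = 0.933). NTSR1, PCSK1, NPY2R, CCKAR and SSTR2 were not analysed here.

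**Figure D2:**
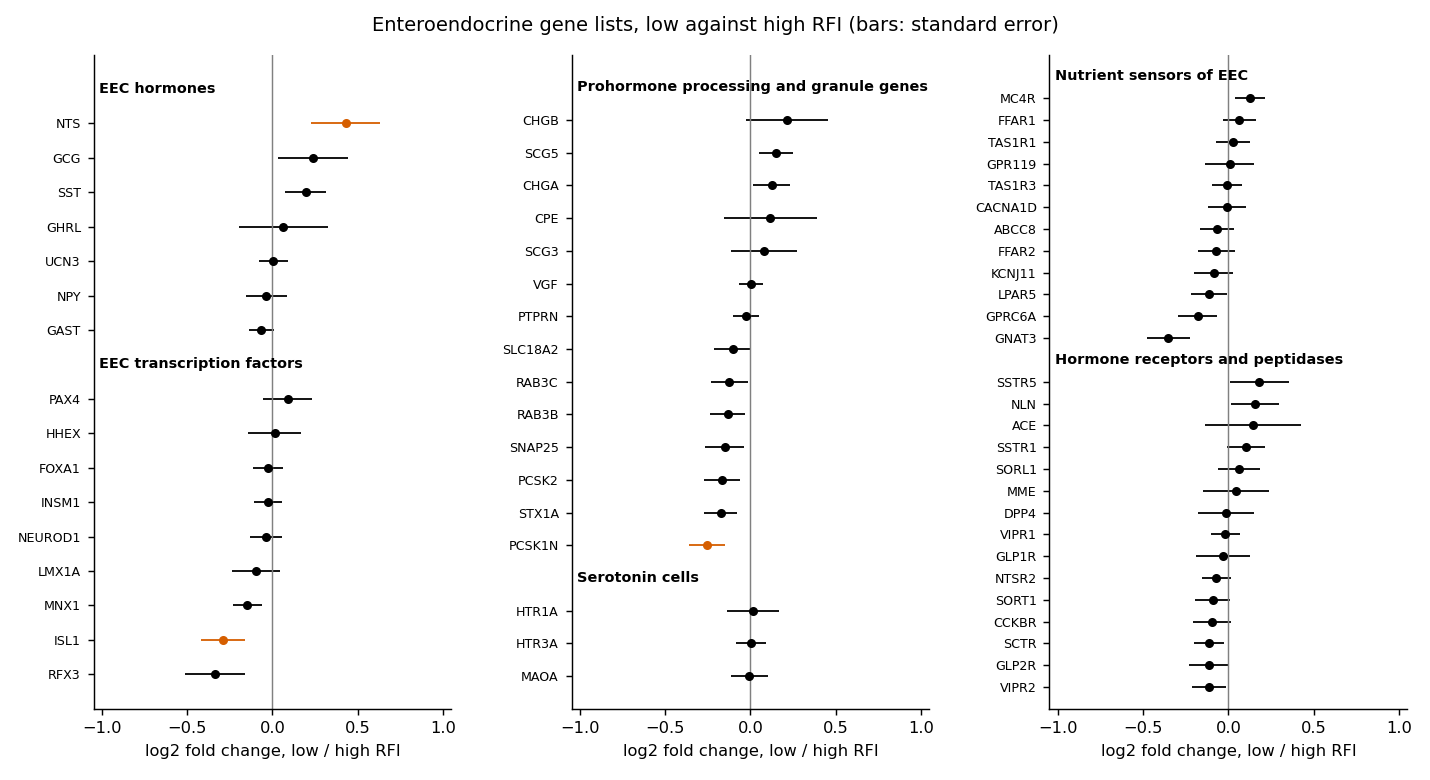
Fitted log2 difference between low and high RFI pigs (points) with its standard error (bars) for 1 probeset per gene in 6 gene lists, the 3 genes chosen from these arrays in orange. Only genes that passed the filter are drawn, so CCK is not among them. Values run between −0.35 for GNAT3 and 0.43 for NTS, and of the genes in black only GNAT3 had an unadjusted limma p under 0.05.

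Markers of other cells of the scraped mucosa were read beside the RFI comparison, since ISL1 and PCSK1N are also neuronal genes. None of 11 enteric neuron markers that passed the filter was called, against the 4.03% of all probesets. The mean level of the 12 with values ran from 4.23 to 4.62 in low RFI pigs and from 4.27 to 4.66 in high RFI pigs. Among 6 smooth muscle markers, ACTA2 alone was called, with a difference of −0.62 ± 0.25 (SE, limma p = 0.0254, adjusted p = 1). The median difference of these 6 was −0.04, and 2 of them were higher in low RFI pigs. The mean level of the 7 smooth muscle markers with values ran from 4.93 to 5.95 in low RFI pigs and from 5.09 to 5.99 in high RFI pigs. The part of these cells in the ISL1 and PCSK1N values was not tested.

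The 5 litters were compared next. Over all probesets, 12.9% had an unadjusted p under 0.05 for the sow term and 21 passed after adjustment, none of them a tested member, and the litter held a median of 23.8% of the variance of a probeset. For NTS the litter held 60.4% of the variance and the RFI group 8.23%, values that are descriptive because NTS was chosen from these arrays. The 4 pigs of sow 1417 had a mean NTS value of 9.49 ± 0.52 (SD), followed by 8.96 ± 0.67 for sow 1435, 8.47 ± 0.43 for sow 1411, 8.31 ± 0.60 for sow 1410 and 7.78 ± 0.47 for sow 1406. The litters at the 2 ends, 1417 with 8.90 to 10.12 and 1406 with 7.31 to 8.25, did not overlap. Their means lay 3.27-fold apart, whereas litters next to each other in this order overlapped. These 2 litters were picked as the ends of the order. How often end litters separate over all probesets was not counted, here or for the genes below. For ISL1 and the brighter PCSK1N probeset the litter held 12.5% and 15.9% of the variance.

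Of the 8 probesets of added genes that passed the filter, 2 had an unadjusted p under 0.05 for the litter, against the 12.9% of all probesets, and neither passed after adjustment. NEUROD1 on its brighter probeset was the clearest (limma F = 7.80, p = 0.000737, adjusted p = 0.111), with 71.6% of its variance between litters. Its litter means were 4.83 for both sow 1417 and sow 1435, 4.53 for sow 1411, 4.40 for sow 1410 and 4.15 for sow 1406. All pigs of sow 1406, at 4.02 to 4.37, lay below all pigs of sows 1417 and 1435, at 4.52 to 5.15. The dimmer NEUROD1 probeset showed no such call (limma F = 0.73, p = 0.584).

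SST followed with a limma F of 4.55 (p = 0.00997, adjusted p = 0.24) and litter means of 8.80 for sow 1417, 8.55 for sow 1435, 8.37 for sow 1410, 8.16 for sow 1411 and 8.10 for sow 1406. The 4 pigs of sow 1417, at 8.37 to 9.16, did not overlap those of sow 1406, at 7.63 to 8.28, again the litters picked as the ends of the order. CCK was called in the fit with no filter (limma F = 5.18, p = 0.00643, adjusted p = 0.22), in which 12.5% of probesets had an unadjusted p under 0.05 for the litter. Its order was another: sow 1411 had the highest mean at 4.79, then sow 1417 at 4.08, sow 1435 at 2.91, sow 1406 at 2.32 and sow 1410 at 1.999. The litters at the ends of this order overlapped, with sow 1410 at 1.215 to 3.25 and sow 1411 at 3.12 to 6.06. All 4 pigs of sow 1406, at 0.92 to 3.003, lay below those of sow 1411. The lowest values of sows 1406 and 1410 were under the filter's mean limit of 1.75.

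GCG missed the threshold (limma F = 2.48, p = 0.0798), with the highest mean in sow 1417 at 7.26 and the lowest in sow 1411 at 6.32. CHGA also had its highest mean in sow 1417, at 7.50 on the brighter probeset (limma p = 0.23) and 7.30 on the dimmer (limma p = 0.103). CHGB had the smallest shares of variance between litters, 5.71% and 9.75% on its 2 probesets (limma p = 0.889 and 0.792). Sow 1417 had the highest litter mean of NTS, ISL1, the brighter PCSK1N probeset, SST, GCG and both CHGA probesets. The 2 CHGB probesets differed in sow 1417. The dimmer had its highest mean there, at 5.21, and the brighter its lowest, at 5.31 against up to 5.67 in sow 1411. Sow 1406 had the lowest mean of NTS, SST and both NEUROD1 probesets.

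**Figure D3:**
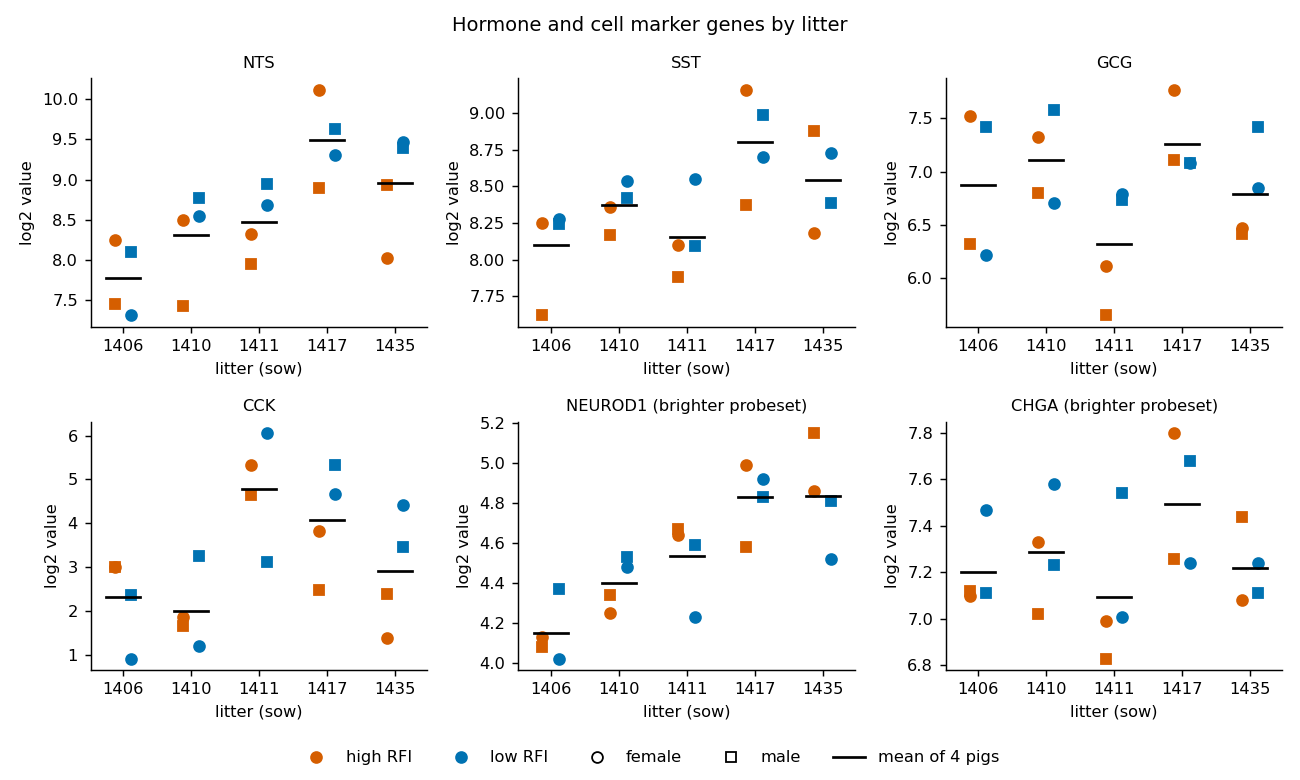
Log2 value of NTS, SST, GCG, CCK, NEUROD1 and CHGA (the brighter probeset of the last 2) in the 4 pigs of each litter, colours for the RFI group, shapes for the sex and a black bar for the litter mean. NTS and SST are highest in sow 1417 and lowest in sow 1406, while CCK is highest in sow 1411.

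Within the lists without the 3 chosen genes, 1 of 6 hormones (SST), 1 of 8 transcription factors (NEUROD1), 1 of 13 granule genes, 0 of 3 serotonin genes, 1 of 12 nutrient sensors and 4 of 15 receptors and peptidases were called for the litter, against the 12.9% of all probesets. The granule gene was SCG3, a secretogranin, with litter means from 2.22 in sow 1417 to 3.14 in sow 1411 (limma p = 0.0152). KCNJ11, a potassium channel subunit, ran from 5.24 in sow 1406 to 5.90 in sow 1435 (limma p = 0.0186). The receptors and peptidases went in both directions. NTSR2 ran from 4.10 in sow 1406 to 4.64 in sow 1435 (limma p = 0.00776), and the peptidases MME (neprilysin) and NLN (neurolysin), both able to cleave neurotensin, had their highest means in sow 1417 at 9.43 and 9.52 (limma p = 0.00717 and 0.0281). GLP2R, the receptor of GLP-2, was lowest in sows 1417 and 1435 at 4.78 and 4.77 and highest in sow 1406 at 5.32 (limma p = 0.0237).

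Markers of other cell types were compared between the same litters. Of those that passed the filter, 0 of 3 follicle B cell markers and 2 of 6 T cell markers were called for the litter. The counts were 1 of 6 for smooth muscle, 0 of 3 for crypt stem cells and 1 of 5 for goblet and secretory cells. They were 0 of 11 for enteric neurons, 1 of 5 for glia and 0 of 7 for enterocytes, against the 12.9% of all probesets. The mean level of 4 follicle B cell markers was 6.41 ± 0.55 in sow 1417 and 6.67 ± 0.74 in sow 1435, against 7.18 to 7.22 in the other litters, and that of 6 T cell markers was 9.35 in both sows 1417 and 1435, against 8.98 to 9.16 elsewhere. The 7 smooth muscle markers had their highest mean level in sow 1406, at 5.66 ± 0.36, against 5.13 to 5.30 elsewhere (SD, n = 4). Of these TAGLN, which did not pass the filter, was at 7.77 in sow 1406 against 5.39 to 6.35 elsewhere, and DES at 6.89 against 5.71 to 6.13. SMTN was also highest in sow 1406, while ACTA2, MYH11, MYLK and LMOD1 were not. The mean level of 5 crypt stem cell markers was 5.58 in sow 1406, 5.53 in sow 1410 and 5.35 in sow 1411, against 4.96 in sow 1417 and 4.91 in sow 1435. Among them OLFM4, which did not pass the filter, ran from 5.66 in sow 1435 and 5.67 in sow 1417 to 8.77 in sow 1406 (limma p = 0.0128, adjusted p = 0.267 in the fit with no filter). The other crypt markers differed far less between sows 1406 and 1417. ASCL2 was at 5.74 and 5.89, LGR5 at 1.63 and 1.62, RNF43 at 6.48 and 6.45, and SOX9 at 5.30 and 5.18, so the gap in the mean level rests mostly on OLFM4. The 6 goblet and secretory cell markers ran from 8.41 in sow 1435 to 8.95 in sow 1406. The 12 enteric neuron markers were at 4.58 ± 0.05 in sow 1406 and 4.34 ± 0.13 in sow 1417 (SD, n = 4), with the other litters between 4.42 and 4.47, and the 5 enteric glia markers lay between 5.50 and 5.59. The mean level of 7 enterocyte markers stayed between 10.94 and 11.19 in every litter. The part of these cells in the litter differences of the endocrine genes was not tested.

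The difference between RFI groups was then compared between the sexes. This is the RFI difference split by sex, so NTS, ISL1 and PCSK1N again had no test and only the added genes were tested among the members. Over all probesets, 6.06% had an unadjusted p under 0.05 for the interaction of RFI group and sex and 0 passed after adjustment. Of the 8 probesets of added genes that passed the filter, 1 was called, that of GCG, whose difference was more positive in males than in females.

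In male pairs, GCG was higher in the low RFI pig by 1.11 in sow 1406, 0.79 in sow 1410, 1.07 in sow 1411 and 1.01 in sow 1435, and differed by −0.03 in sow 1417. In female pairs, it differed by −1.30 in sow 1406, −0.62 in sow 1410, 0.68 in sow 1411, −0.69 in sow 1417 and 0.38 in sow 1435. The mean difference was 0.79 in males and −0.31 in females, and the interaction was −1.10 ± 0.34 (SE, females minus males, limma p = 0.00479, adjusted p = 0.784). In males GCG ran from 6.73 to 7.58 in low RFI pigs and from 5.65 to 7.11 in high RFI pigs, so the groups overlapped. Leaving out each pig in turn kept the unadjusted p between 0.000755 and 0.0121.

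For NTS all 5 male pairs were higher in the low RFI pig, by 0.64 in sow 1406, 1.35 in sow 1410, 0.99 in sow 1411, 0.74 in sow 1417 and 0.47 in sow 1435. The 5 female pairs went both ways, with −0.94 in sow 1406, 0.05 in sow 1410, 0.35 in sow 1411, −0.81 in sow 1417 and 1.45 in sow 1435. The mean difference was 0.84 in males and 0.02 in females, and the interaction was −0.82 ± 0.38 (SE). Leaving out each pig in turn gave −1.14 to −0.62.

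The other added genes had interactions with a limma p of 0.202 or more, and for SST, whose mean differences were 0.15 in females and 0.24 in males, it was −0.09 ± 0.24 (SE, limma p = 0.701). Among the lists, HTR1A, a serotonin receptor, had an interaction of −0.60 ± 0.28, the secretin receptor SCTR 0.39 ± 0.16, MME −0.92 ± 0.32 and ACE, another peptidase of the brush border, −1.13 ± 0.50 (SE, limma p = 0.0458, 0.0223, 0.011 and 0.0376, adjusted p from 0.784 to 0.824). With GCG, 1 of 6 hormones, 1 of 3 serotonin genes and 3 of 15 receptors and peptidases were called, against the 6.06% of all probesets. None of the 8 transcription factors, 13 granule genes and 12 nutrient sensors was called. All 6 T cell markers had a negative interaction, as GCG had, with a median of −0.38. CD3G, CD8A and CD2 were called (limma p = 0.0141, 0.0247 and 0.0328). The mean level of all 6 T cell markers was 9.35 ± 0.22 in low RFI males and 9.08 ± 0.09 in high RFI males. In low and high RFI females it was 9.11 ± 0.18 and 9.20 ± 0.20 (SD, n = 5). Of 7 enterocyte markers, all had a negative interaction and APOA1 was called (−0.62 ± 0.21, SE, limma p = 0.00942), and of 11 enteric neuron markers ELAVL3 was called in the other direction (0.60 ± 0.26, SE, limma p = 0.035). The part of these cells in the NTS and GCG values was not tested.

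**Figure D4:**
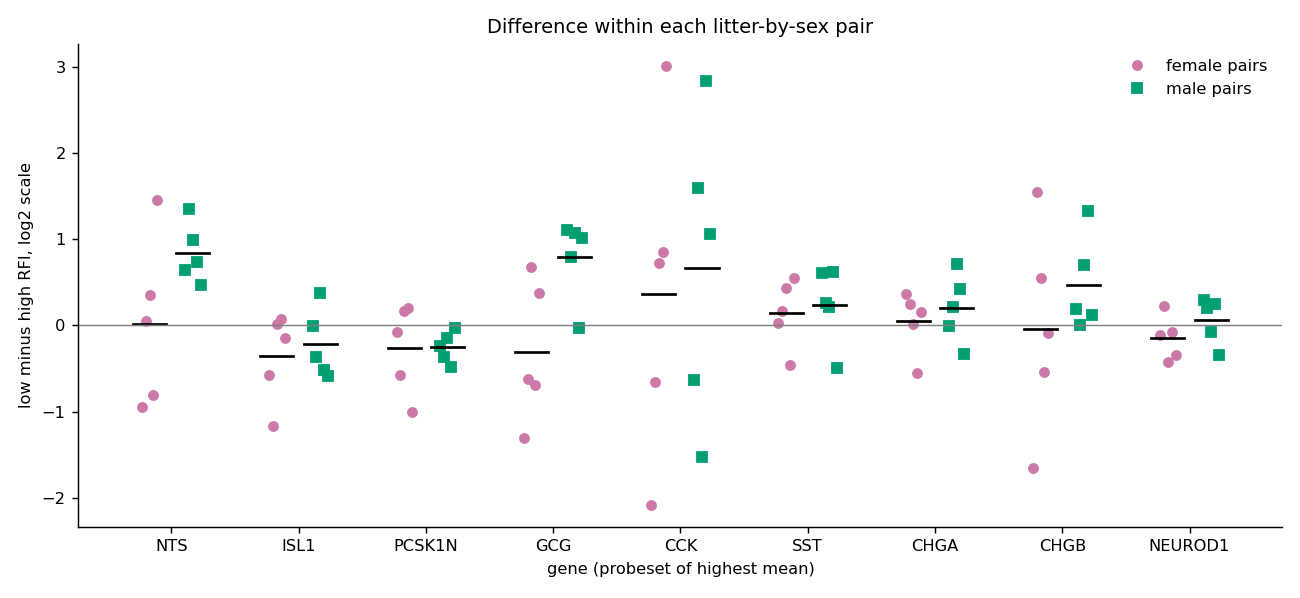
Low minus high RFI difference in log2 value within each pair of littermates, for 5 female pairs (circles) and 5 male pairs (squares) of each member, with black bars at the mean of 5 pairs. The male pairs of NTS all lie above 0 and average 0.84 against 0.02 in females, and GCG averages 0.79 in males against −0.31 in females.

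Females and males were also compared with each other. Over all probesets, 7.43% had an unadjusted p under 0.05 for sex, 3.19% higher and 4.24% lower in females, and 1 passed after adjustment, which was no member. Of the 13 member probesets 1 was called, the dimmer CHGB probeset, at 5.25 ± 0.31 in females and 4.97 ± 0.19 in males (SD, n = 10), a difference of 0.28 ± 0.12 (SE, limma p = 0.0331, adjusted p = 0.65). The brighter CHGB probeset differed by 0.33 ± 0.24 (SE, limma p = 0.182). Leaving out any of 7 pigs lost the call of the dimmer probeset, with p up to 0.0787 without the low RFI female of sow 1435. Of the lists, the granule gene CPE differed between females and males by 0.65 ± 0.24 and the transcription factor RFX3 by −0.45 ± 0.15 (SE, limma p = 0.0137 and 0.00713, adjusted p = 0.619 and 0.615).

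The members were compared over the 20 pigs by correlating the brightest probeset of each, in 36 pairs with a permutation test of 100000 resamples. Pigs of a litter are not independent, so each value was computed again after the litter means were removed, with values permuted within litters. NTS, ISL1 and PCSK1N were chosen from these arrays. Their values kept the RFI difference and, over all pigs, the litter difference. The r of any pair with these genes is therefore a description, and its p is not given. The adjustment covered all 36 pairs. NTS and SST gave the closest relation (r = 0.797, rho = 0.756), and r was 0.789 without the 2 pigs farthest from the median of NTS. Within litters it was 0.639.

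NTS and GCG behaved the other way. Their r was 0.538 over all pigs (rho = 0.478) and 0.752 within litters, the highest r of the 36 pairs within litters. Pigs with more NTS than their littermates had more GCG as well, and r within litters was 0.807 without the 2 extreme pigs. NTS and NEUROD1, in contrast, had r = 0.659 over all pigs (rho = 0.606) and 0.0975 within litters. SST and CHGA gave r = 0.659 (permutation p = 0.00164, adjusted p = 0.0214; rho = 0.559) and 0.565 within litters (permutation p = 0.0249, adjusted p = 0.218).

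ISL1 and PCSK1N had a weaker relation. As above, r of pairs with these genes is a description without a test. The r of ISL1 with PCSK1N was 0.514 (rho = 0.462), falling to 0.253 without the 2 pigs farthest from the median of ISL1. Their r with NTS over all pigs was 0.0731 and −0.0847. Within litters the r of PCSK1N with NTS was −0.56. With SST it was −0.59 within litters.

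**Figure D5:**
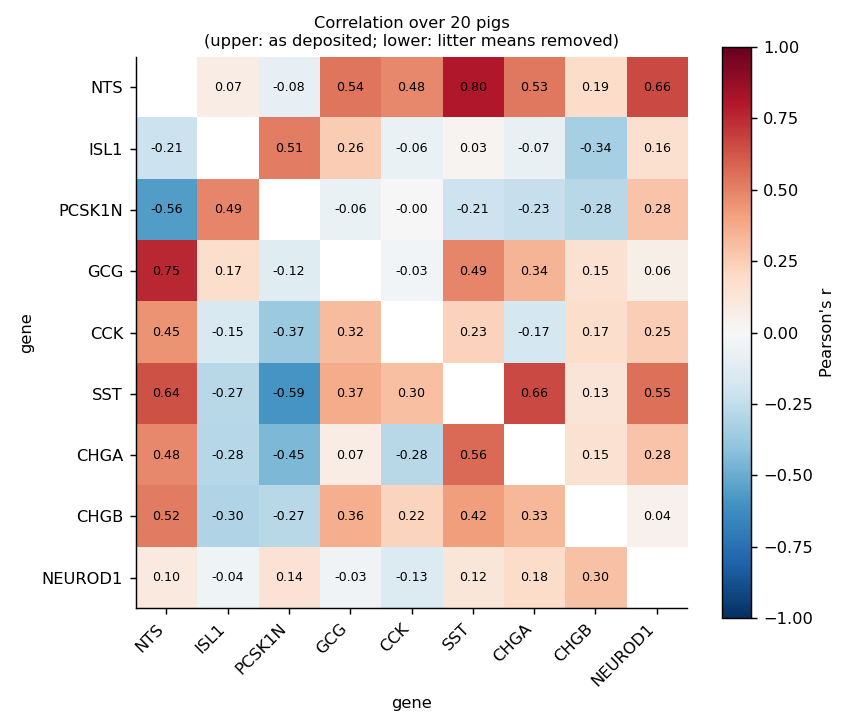
Pearson's r over 20 pigs between the brightest probesets of the 9 members, as deposited above the diagonal and with litter means removed below it. NTS with SST reaches 0.80 above the diagonal, and NTS with GCG rises from 0.54 to 0.75 below it, while NTS with NEUROD1 falls from 0.66 to 0.10.

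The genes whose values followed each chosen gene most closely were looked up among 9757 genes with 1 probeset each over the 20 pigs, as a description. For NTS these were ERCC6 (r = 0.887), a DNA repair gene, ITCH (0.869), a ubiquitin ligase, VEGFA (0.867), a vascular growth factor, DNAJB6 (0.851), a cochaperone, and SACM1L (0.843), a phosphoinositide phosphatase. With litter means removed, their r with NTS lay between 0.589 and 0.754. SST ranked 17 in this order, NEUROD1 199, GCG 593, CHGA 623, CHGB 2961, ISL1 4053 and PCSK1N 5625.

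For ISL1 the closest were KCNH3 (r = 0.849), a potassium channel, GP9 (0.835), a platelet glycoprotein, HMX3 (0.813), a homeobox gene, SLC36A3 (0.805) and FADS6 (0.801). For PCSK1N they were UCN2 (r = 0.772), a urocortin, ATAT1 (0.743), a tubulin acetyltransferase, DIRAS3 (0.731), RIMS4 (0.714) and SCARA3 (0.701). With litter means removed, the r of these 10 lay between 0.685 and 0.855. None of the 15 genes was in the endocrine lists.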

How the data were processed

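Ileum mucosa RNA of 20 pigs was hybridized to the snowball array, 1 array a pig. The authors summarized and normalized the probe signals by robust multichip average on a Sscrofa11.1 layout and deposited log2 values. The labels name GCOS 1.1.1. The RNA kits of the labels and of the study's methods differ. Of 47845 rows, 25092 held values. Following the methods, 22136 were kept after dropping those whose mean fell below the 5% quantile (1.75) or whose SD in a group exceeded its 95% quantile (0.825 and 0.808). Row symbols came from the platform annotation, 237 of them updated.

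Low and high RFI pigs were compared in limma 3.58.1 (R 4.3.3) with the sow as a fixed term. The litter effect was a moderated F test beside the RFI group, and sex and its interaction with RFI group were added as terms. Slaughter batch, a term of the methods' model, was not used here because it is missing from the labels. As in the methods, an unadjusted p of 0.05 was the threshold, and Benjamini-Hochberg values cover all probesets. Correlations used Python 3.11.15 with scipy 1.17.1. The fits were tested on simulated data.

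Members and gene lists were chosen with earlier results of these data known. Named genes were the members, their direct partners, list genes with an unadjusted p under 0.05, and the 5 genes most like each chosen gene. Other cell markers were named after their values were seen. For a gene with several probesets, that of the highest mean was used in lists and correlations. Littermates of the same sex were checked for shared deviations: the median correlation was 0.0836, and 4 of 10 pairs exceeded 0.1, so the pair was not the main block. Alternatives changed the sow term, the filter, the variance moderation, array weights, scaling, the choice of probeset and the pigs used.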

Additional observations from a re-analysis of the deposited data

Results flagged for a closer look

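A pig was taken to stand apart when its gap to the nearest pig, as a share of its group's range, exceeded Dixon's limit (0.829 for 4 pigs, 0.466 for 10). Of 101 groups examined 4 did, where chance gives about 1 in 20. The low RFI female of sow 1410 was lowest for ISL1 among low RFI pigs, at 2.93 with the next at 3.58 (share 0.559). The high RFI female of sow 1417 was highest for GCG in its litter, at 7.77 with the next at 7.11 (0.9498). In the litter of sow 1406, the high RFI male was lowest for SST, at 7.63 with the next at 8.24 (0.934), and the low RFI female was highest for CHGA on the brighter probeset, at 7.47 with the next at 7.12 (0.942).

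Limma's interaction of RFI group and sex (females minus males) had an unadjusted p under 0.05 for 5 listed genes, none of which passed after adjustment. They were 1 of 6 hormones, 1 of 3 serotonin genes and 3 of 15 receptors and peptidases, against the 6.06% of all probesets. The 8 transcription factors, 13 granule genes and 12 nutrient sensors had none. The interaction was −1.10 for GCG. HTR1A had −0.60, with −0.29 in females and 0.32 in males. SCTR had 0.39, with 0.08 in females and −0.31 in males. MME had −0.92, with −0.41 in females and 0.50 in males, and ACE −1.13, with −0.42 in females and 0.71 in males.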

How the results depend on the processing

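The RFI differences of NTS, ISL1 and the brighter PCSK1N probeset kept their direction under every alternative run, between 0.30 and 0.57, −0.41 and −0.17, and −0.32 and −0.15. Because these genes were chosen from the same arrays, this is a description and lends the differences no support. With the pair of littermates of the same sex as a block, 953 probesets were called instead of 893 and no member's call changed. Centring each array on its median lowered the share of called probesets that were lower in low RFI pigs from 64.28% to 53.81%, and turned the sign of the interaction of the dimmer CHGB (0.0072) and brighter PCSK1N (0.0058) probesets. The mean of both CHGA probesets turned the dimmer one's RFI difference to 0.047. Among pairs without a chosen gene, only SST and CHGA passed adjustment over all pigs, and this pair did not pass once litter means were removed. With litter means removed, r was 0.639 for NTS and SST, 0.0975 for NTS and NEUROD1 and 0.565 for SST and CHGA. The 1 pair that passed with litter means removed, NTS and GCG, had not passed over all pigs. The causes were not tested.

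Leaving out single pigs or litters moved calls or turned signs of small differences. The interaction ran from −0.14 to 0.17 for the dimmer CHGB probeset, −0.24 to 0.062 for ISL1, −0.12 to 0.13 for the brighter PCSK1N probeset and −0.27 to 0.020 for SST. The RFI difference ran from −0.096 to 0.031 for the dimmer CHGA probeset, −0.027 to 0.12 for the dimmer CHGB probeset, −0.10 to 0.037 for the brighter NEUROD1 probeset, −0.088 to 0.0088 for the dimmer PCSK1N probeset and 0.14 to 0.26 for SST. The sex difference ran from −0.0017 to 0.11 and −0.072 to 0.012 for the brighter and dimmer CHGA probesets, −0.083 to 0.15 for GCG, −0.018 to 0.22 for NTS, 0.12 to 0.26 for SST, and 0.19 to 0.50 and 0.22 to 0.36 for the brighter and dimmer CHGB probesets. The litter F ran from 1.48 to 3.29 for GCG, 1.33 to 3.25 for the dimmer CHGA probeset, 0.44 to 1.54 for ISL1 and 0.41 to 1.51 for the brighter PCSK1N probeset. Some calls appeared at the unadjusted threshold only. Without the low RFI female of sow 1410, the high RFI female of sow 1406 or the low RFI female of sow 1406, GCG was called for the litter (limma p = 0.0486, 0.0351 and 0.0355, adjusted p = 0.396, 0.315 and 0.407). The dimmer CHGA probeset was called for it without the low RFI male of sow 1411 or the low RFI female of sow 1417 (limma p = 0.0464 and 0.0368, adjusted p = 0.37 and 0.36). For sex, SST was called without the high RFI male of sow 1435 (limma p = 0.0193, adjusted p = 0.597). The brighter CHGB probeset was called for sex without the low RFI female of sow 1406 (limma p = 0.0207, adjusted p = 0.616). Counts of probesets called ran from 771 to 1099 for the RFI group, and the share lower in low RFI pigs from 57.03% to 68.41%. Median differences of the 6 lists moved by less than 0.1 throughout.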
